A study of Mus musculus with 8 samples.

Results

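The troponin genes are 8 of the 24054 genes in the RNA-seq table of soleus (SOL) muscle, and they were taken by name: Tnnc1, Tnnc2, Tnni1, Tnni2, Tnni3, Tnnt1, Tnnt2 and Tnnt3. Troponin is the calcium switch of striated muscle and sits on the thin filament with tropomyosin. Its subunit troponin C binds calcium, troponin I holds the filament off when calcium is low, and troponin T ties the complex to tropomyosin. Slow fibers, fast fibers and heart use different genes for these subunits, and the SOL of the mouse is a mixed postural muscle rich in slow and oxidative fast fibers. In slow fibers the subunits come from Tnnc1, Tnni1 and Tnnt1, and in fast fibers from Tnnc2, Tnni2 and Tnnt3. The heart uses Tnni3 and Tnnt2 and shares Tnnc1 with slow fibers.

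SOL was taken from 4 flox mice, Irf4 flox/flox without Cre, and 4 MI4KO mice, Irf4 flox/flox with Myl1-Cre, in which Cre removes the transcription factor IRF4 from skeletal muscle. All 8 were male C57BL/6 mice whose labels record a high-fat diet, and their age was not given. Cre stands in the Myl1 gene, which encodes a fast myosin light chain, and the flox mice carry no Cre, so an effect of the deletion and an effect of Cre or of its Myl1 allele cannot be told apart. Mice are called flox 1 to 4 and MI4KO 1 to 4 in the order of the animal numbers in their labels. Those numbers fall into a lower range, with flox 1, MI4KO 1 and MI4KO 2, and a higher range with the other 5 mice. Each mouse gave 1 stranded poly(A) library, and the deposited values are read counts per gene scaled for depth and then by TMM, the trimmed mean of M-values, which brings libraries to a common scale through the bulk of their genes. The question put to the troponin genes was whether their levels, or the balance of slow and fast forms, differed between MI4KO and flox SOL.

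The deposited values were whole multiples of the value of 1 read, and the recovered reads per mouse ranged from 13417512 to 16384565. At this depth 3 reads on a gene equal a value of 0.181 to 0.225. Irf4, the deleted gene, was at 0.686, 1.46, 1.58 and 1.68 in flox 1 to 4 and at 0.725, 0.840, 0.266 and 1.03 in MI4KO 1 to 4, which is 4 to 23 reads per mouse over the whole transcript, outside the deleted part too. The groups overlapped, because flox 1 lay below 3 of the MI4KO mice. The log2 difference of Irf4 was -0.45 (standard error 0.20, 95% confidence interval -0.88 to -0.02, n = 4 per group), with an unadjusted p = 0.040 and a Benjamini-Hochberg adjusted p = 1.0 by limma. Without flox 1 it was -0.60, past the limits on fold and unadjusted p given below, and without MI4KO 3 it was -0.31, with an unadjusted p above 0.05. With a pseudocount of 0.1 in place of 1 the Irf4 difference was -0.88, also past these limits, and edgeR on the recovered reads gave -0.86, not past them. Myl1, where Cre sits, was at 3151, 3664, 3510.3 and 3262 in flox mice and at 2447, 2203, 2736 and 2846 in MI4KO mice, with no overlap. Its log2 difference was -0.41 (standard error 0.10, 95% confidence interval -0.63 to -0.20, n = 4 per group), with an unadjusted p = 0.0013 and an adjusted p = 1.0 by limma. Flox 1 stood apart by liver markers, which summed to 214.6 in it and to between 9.43 and 37.8 in the other mice, and MI4KO 3 by neutrophil markers, which summed to 5.45 in it and to between 0.249 and 0.975 in the others. Their part in the values below was not tested, and where a gene named here crossed the limits without these mice that value is given.

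In the genome the troponin I and T genes lie in neighbouring pairs, and all positions here are those of GRCm38 in the GENCODE M21 annotation, since the table itself gives none. Tnni1 (chr1:135779434-135810989, plus strand) is followed after 25.4 kb by Tnnt2 (chr1:135836354-135852260, plus strand), so a slow gene stands beside a cardiac one. Tnnt1 (chr7:4504570-4516382) and Tnni3 (chr7:4518305-4524229) lie 1922 bases apart on the minus strand, again a slow gene beside a cardiac one. Tnni2 (chr7:142441808-142444410) and Tnnt3 (chr7:142498836-142516009), both fast, lie 54.4 kb apart on the plus strand. The troponin C genes stand alone, Tnnc1 at chr14:31208312-31211729 on the plus strand and Tnnc2 at chr2:164777161-164779967 on the minus strand. Nisch, Ube2c and Prr33 overlap Tnnc1, Tnnc2 and Tnnt3 on the opposite strand, with mean values of 142, 0.567 and 99.1, and Dnaaf3 overlaps Tnni3 on the same strand at 0.101. The libraries mark strand, but the strand setting of the counting was not given in the sources used here.

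The stretches before the starts of 4 abundant members are shown because they are the slow troponin genes and the fast troponin C gene, whose levels are compared next, and their motifs can be read off letter by letter. They come from the RefSeq promoters of GRCm38.p6, which held 8 windows for 6 troponin genes and none for Tnni2 and Tnnt3, and each runs from 250 to 51 bases before a RefSeq start, 5′ to 3′ on the strand of the gene. Capitals mark the E-box CANNTG, the core to which MyoD-family factors bind, and GGAATG, which is CATTCC, the core of TEAD sites, on the other strand.
Tnnc1, chr14:31208062-31208261, plus strand: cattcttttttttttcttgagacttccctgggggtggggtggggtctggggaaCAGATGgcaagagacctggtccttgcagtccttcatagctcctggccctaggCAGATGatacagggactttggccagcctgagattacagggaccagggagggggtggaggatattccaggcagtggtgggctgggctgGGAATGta
Tnni1, chr1:135799171-135799370, plus strand: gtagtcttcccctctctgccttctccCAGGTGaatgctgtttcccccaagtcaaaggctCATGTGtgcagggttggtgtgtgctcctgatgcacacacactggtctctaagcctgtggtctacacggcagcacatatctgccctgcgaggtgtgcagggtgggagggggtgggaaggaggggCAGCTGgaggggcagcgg
Tnnt1, chr7:4516026-4516225, minus strand: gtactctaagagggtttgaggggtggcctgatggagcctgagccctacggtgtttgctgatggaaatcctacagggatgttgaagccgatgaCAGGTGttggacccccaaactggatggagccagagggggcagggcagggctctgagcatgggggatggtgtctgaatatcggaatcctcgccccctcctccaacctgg
Tnnc2, chr2:164779785-164779984, minus strand: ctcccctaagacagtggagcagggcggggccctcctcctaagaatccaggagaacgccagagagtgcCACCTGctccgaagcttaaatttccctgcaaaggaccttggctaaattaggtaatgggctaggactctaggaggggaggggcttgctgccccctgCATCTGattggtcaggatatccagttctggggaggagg
The Tnnc1 stretch holds 2 E-boxes, both CAGATG, and the Tnnc2 stretch also holds 2, CACCTG and CATCTG. Tnni1 has 3, at 224 to 219, 191 to 186 and 68 to 63 bases before the start, and Tnnt1 has 1, at 158 to 153. An E-box was present in 7 of the 8 troponin windows, beside 59.0% of all 32851 promoter windows of the same length, so it is a common word. These 7 windows belong to Tnnc1, Tnnc2, Tnni1, Tnnt1 and Tnnt2. Tnni1 and Tnnt2 have more than 1 window each, and the Tnni1 windows overlap, so the windows are not separate counts. CATTCC was found on either strand in 1 troponin window, that of Tnnc1, and in 10.7% of all windows. The MEF2 motif, the serum response motif CArG and the interferon-response pair of GAAA, any 2 bases and GAAA were in none of the 8 windows and in 2.42%, 1.16% and 2.40% of all windows. Both strands were searched for every motif, and a match is a description of letters and not of binding. GENCODE annotates transcript starts upstream of the RefSeq start for Tnni1, Tnnt1 and Tnnc2. By its gene bounds, the stretches of Tnni1 and Tnnt1 lie within the gene and that of Tnnc2 mostly does. The distances, and whether a stretch is upstream of the gene, thus depend on the annotation.

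Over the length of the longest coding transcript, fast troponin genes had the highest levels in flox SOL, slow ones came next and cardiac ones were far below. Divided by the longest coding transcript in kilobases, the mean values of flox mice were 8347 ± 276 for Tnnt3, 6948 ± 324 for Tnnc2 and 5828 ± 200.2 for Tnni2 (SD, n = 4 each). The slow genes followed at 3837 ± 329 for Tnnt1, 2853 ± 280.4 for Tnnc1 and 1784 ± 217 for Tnni1. Tnnt2 was at 7.28 ± 0.424 and Tnni3 at 0.197 ± 0.243. Neighbours in this order were 1.201-fold apart for Tnnt3 over Tnnc2, 1.19-fold for Tnnc2 over Tnni2, 1.52-fold for Tnni2 over Tnnt1, 1.35-fold for Tnnt1 over Tnnc1 and 1.60-fold for Tnnc1 over Tnni1. Each step was larger than the spread between flox mice, whose ranges did not overlap, and the order was the same in all 8 mice. It was also the same with the annotated coding length in place of the transcript length. With the shortest annotated coding transcript it changed, since that of Tnnt1 has 218 bases and placed Tnnt1, at 18640.1, above Tnni2 and Tnnc2, at 8828 and 6948, while Tnni1 came before Tnnc1. The steps are differences of group levels on the scale of reads per length, and the 50-base reads do not tell which splice form of a gene they came from.

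**Figure D1:**
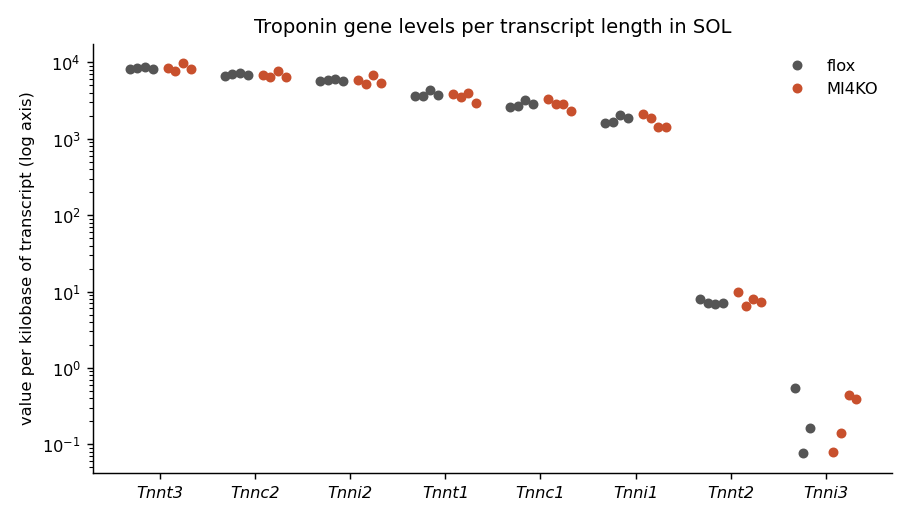
Level of each troponin gene in each mouse, as deposited value per kilobase of the longest coding transcript on a log axis, flox in grey and MI4KO in orange, genes ordered by flox mean; the flox 4 value of Tnni3 is 0 and is not drawn. The 3 fast genes lie above the 3 slow genes in every mouse, and Tnnt2 and Tnni3 lie far below.

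The slow genes did not differ between the groups beyond the spread between mice. Tnnc1, the calcium sensor of slow fibers and heart, was at 1880.4, 1948, 2339 and 2059.9 in flox 1 to 4 and at 2367, 2024, 2052 and 1653 in MI4KO 1 to 4. The highest value was that of MI4KO 1 and the lowest that of MI4KO 4, so the flox range lay within the MI4KO range. The log2 difference of Tnnc1, on log2(value + 1), was -0.03 (standard error 0.11, 95% confidence interval -0.27 to 0.22, n = 4 per group). Tnni1, the slow inhibitory subunit, was at 1819.6, 1879, 2356 and 2151 in flox mice and at 2387, 2158, 1643 and 1641 in MI4KO mice. MI4KO 1 was again highest, and MI4KO 3 and 4 were the lowest of the 8 mice and nearly equal. For Tnni1 the log2 difference was -0.08 (standard error 0.13, 95% confidence interval -0.37 to 0.21, n = 4 per group). Tnnt1, the slow tropomyosin-binding subunit, was at 3810.4, 3875, 4573 and 3996 in flox mice and at 4051, 3668, 4209 and 3094 in MI4KO mice. Here flox 3 was highest and MI4KO 4 lowest, while MI4KO 3, low for Tnni1, was the highest of the MI4KO mice. The log2 difference of Tnnt1 was -0.12 (standard error 0.11, 95% confidence interval -0.36 to 0.12, n = 4 per group), the largest of the slow genes in size. Unadjusted p-values by limma were 0.797, 0.561 and 0.306 for Tnnc1, Tnni1 and Tnnt1, each with a Benjamini-Hochberg adjusted p = 1.0, and exact two-sided permutation tests of the 8 values gave p = 0.914, 0.714 and 0.429. The sign of Tnnc1 turned without MI4KO 4 (0.06), without flox 3 (0.03) and with library-size scaling (0.015), while Tnni1 and Tnnt1 stayed negative under every alternative. In bulk muscle, the share of slow fibers and the slow transcript per fiber cannot be told apart, whether or not a level differs.

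The fast genes had smaller log2 differences between the groups than Tnni1 and Tnnt1, and none was beyond the spread between mice. Tnnc2, the calcium sensor of fast fibers, was at 4618, 4987, 5113 and 4736 in flox mice and at 4804, 4497, 5457 and 4532 in MI4KO mice, a log2 difference of -0.02 (standard error 0.10, 95% confidence interval -0.22 to 0.19, n = 4 per group). Tnni2, the fast inhibitory subunit, was at 4319.6, 4521, 4670.1 and 4393 in flox mice and at 4464, 3993, 5198 and 4144 in MI4KO mice, a log2 difference of -0.02 (standard error 0.10, 95% confidence interval -0.23 to 0.20, n = 4 per group). Tnnt3, the fast tropomyosin-binding subunit and the most abundant member, was at 8903, 8991, 9418 and 8713 in flox mice and at 9187, 8193, 10420 and 8829.8 in MI4KO mice, a log2 difference of 0.02 (standard error 0.11, 95% confidence interval -0.21 to 0.25, n = 4 per group). All 3 fast genes were highest in MI4KO 3 and lowest in MI4KO 2, and the 4 flox mice lay between these mice. By limma, unadjusted p-values were 0.875, 0.882 and 0.861 for Tnnc2, Tnni2 and Tnnt3, with adjusted p = 1.0 for each, and exact two-sided permutation tests gave p = 0.886, 0.971 and 0.8. The same mice, MI4KO 3 and MI4KO 2, also had the highest and the lowest sum of deposited values over all genes, 1089208 and 917785. Scaled by library size instead, the coefficient of variation over the 8 mice was smaller for each fast gene, 4.12% in place of 6.76% for Tnnc2, 4.39% in place of 8.19% for Tnni2 and 3.91% in place of 7.14% for Tnnt3. On that scale the log2 differences of Tnnc2 and Tnni2 were positive, both 0.03, so these 2 genes have no direction that holds under both scalings. Without MI4KO 3 the log2 difference of Tnnt3 was -0.04.

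**Figure D2:**
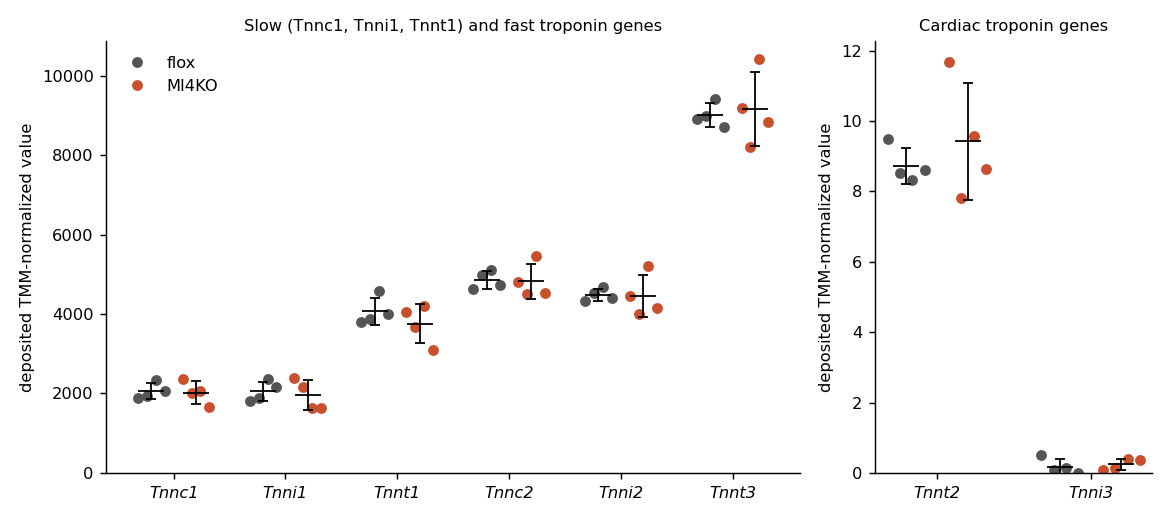
Deposited value of each troponin gene in each mouse, mice 1 to 4 from left to right within a group, flox in grey and MI4KO in orange; black bars give the mean and the SD (n = 4), and the bar of Tnni3 in flox mice is cut at 0. The groups overlap for every gene, and the cardiac genes are drawn on an axis of their own.

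The cardiac genes were at trace levels. Tnnt2, cardiac troponin T, which is also known from immature skeletal fibers, was at 9.48, 8.53, 8.33 and 8.60 in flox mice and at 11.7, 7.82, 9.57 and 8.64 in MI4KO mice, on 111 to 161 reads per mouse. MI4KO 1 was the highest and MI4KO 2 the lowest, and the flox mice lay between them. The log2 difference of Tnnt2 was 0.09 (standard error 0.12, 95% confidence interval -0.17 to 0.35, n = 4 per group), and limma gave an unadjusted p = 0.473 and a Benjamini-Hochberg adjusted p = 1.0 for it. An exact two-sided permutation test of Tnnt2 gave p = 0.514. Without MI4KO 1 the log2 difference of Tnnt2 was -0.01. Tnni3, cardiac troponin I, had 0 to 8 reads per mouse, 11 reads over the flox mice and 15 over the MI4KO mice. Its values were 0.499, 0.0694, 0.150 and 0 in flox mice and 0.0725, 0.129, 0.399 and 0.363 in MI4KO mice, and it did not reach the filter (4 or more mice at 1 or above), so no fold change is given. The value of flox 4 was 0, where a count of 0 allows a value of up to 0.219. The exact two-sided permutation test of the 8 Tnni3 values gave p = 0.771.

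Of the 8 troponin genes, 7 passed the filter and were tested, and none of the 7 passed a fold change of 1.5 with an unadjusted p under 0.05. The background is low, since 0.219% of the 11865 genes tested passed these limits in limma, 0.059% upward and 0.16% downward in MI4KO SOL. Adjusted p-values under 0.05 were found for 0% of genes by limma and for no gene by edgeR or DESeq2, and 3.36% of the genes tested, 399 genes, had an unadjusted p under 0.05, with no troponin gene among them. edgeR and DESeq2 on the recovered reads also placed none of the 7 past the limits or under an unadjusted p of 0.05, with smallest p-values of 0.280 and 0.306. The groups did not overlap for 2.07% of all genes and for none of the 7 members. The 95% confidence intervals by limma of the log2 differences ran from -0.37, the lower bound for Tnni1, to 0.35, the upper bound for Tnnt2, so a 1.5-fold difference in either direction lay outside the interval of each of the 7 genes. The median log2 difference was -0.02 over the 7 genes and -0.01 over all genes tested.

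**Figure D3:**
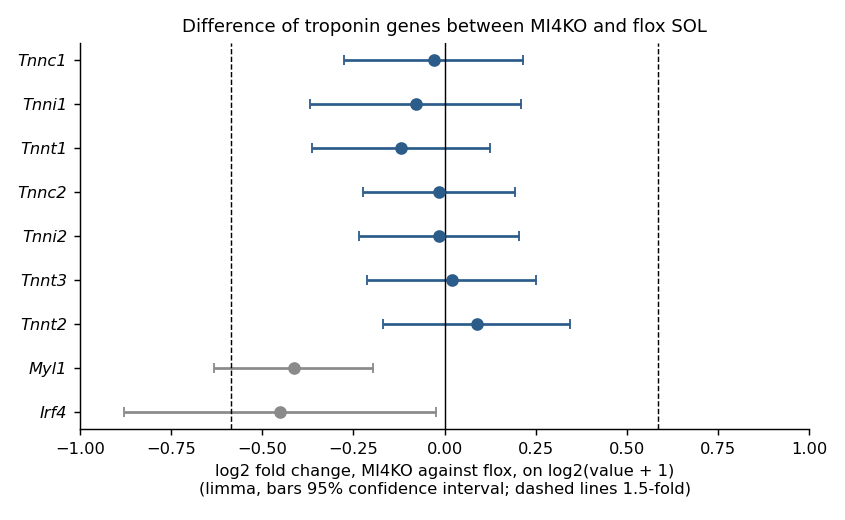
Log2 difference between MI4KO and flox SOL for the 7 troponin genes tested (blue) and for Myl1 and Irf4 (grey), with 95% confidence intervals by limma (n = 4 per group); dashed lines mark 1.5-fold. The troponin intervals span 0 and stay inside the dashed lines, those of Myl1 and Irf4 lie below 0.

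The ratio of the slow to the fast gene of a subunit does not depend on how a library is scaled, and its SD was larger among MI4KO mice than among flox mice for each subunit, a difference in spread that was not tested. For troponin C, Tnnc1 over Tnnc2 was 0.407, 0.391, 0.457 and 0.435 in flox 1 to 4 and 0.493, 0.450, 0.376 and 0.365 in MI4KO 1 to 4. The group means were 0.423 ± 0.0296 and 0.421 ± 0.0610 (SD, n = 4), and 3 of the 4 MI4KO mice lay outside the flox range, 1 above and 2 below. For troponin I, Tnni1 over Tnni2 was 0.421, 0.416, 0.504 and 0.490 in flox mice and 0.535, 0.541, 0.316 and 0.396 in MI4KO mice. All 4 MI4KO mice lay outside the flox range here, MI4KO 1 and 2 above it and MI4KO 3 and 4 below it, and the means were 0.458 ± 0.0459 and 0.447 ± 0.110. For troponin T, Tnnt1 over Tnnt3 was 0.428, 0.431, 0.486 and 0.459 in flox mice and 0.441, 0.448, 0.404 and 0.350 in MI4KO mice, with means of 0.451 ± 0.0270 and 0.411 ± 0.0446. MI4KO 3 and 4 lay below the flox range of the troponin T ratio and MI4KO 1 and 2 within it. Summed, the 3 slow genes over the 3 fast genes gave 0.445 ± 0.0319 in flox and 0.422 ± 0.0602 in MI4KO mice. The mean log2 ratio differed by -0.01 for troponin C, -0.06 for troponin I, -0.14 for troponin T and -0.09 for the sum. Each difference was smaller in size than the SD of the log2 ratio among MI4KO mice. That of troponin T was larger than the SD among flox mice (0.0855), and the others were smaller than theirs. No p is given for these ratios because they combine genes that were chosen. With single mice left out, the difference crossed 0 for troponin C (-0.09 to 0.05) and troponin I (-0.17 to 0.09). It stayed negative for troponin T (-0.18 to -0.06) and for the sum (-0.15 to -0.02).

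The MI4KO mice split by their mouse numbers. Among the mice of the lower number range, the log2 ratio was higher in both MI4KO mice than in flox 1, by 0.21 on average for troponin C, 0.35 for troponin I and 0.05 for troponin T. Among those of the higher range, both MI4KO mice were below all 3 flox mice, by a mean log2 difference of -0.20 for troponin C, -0.40 for troponin I and -0.28 for troponin T. The labels do not say what the numbers stand for, the lower range holds 1 flox mouse, and the opposite directions were not tested. Flox 1 is the mouse with liver markers and MI4KO 3 the one with neutrophil markers, and without these 2 mice the lower range has no flox mouse. By gene, the split was widest for Tnni1 and Tnnc1. The log2 difference was 0.32 in the lower and -0.37 in the higher number range for Tnni1, 0.22 and -0.20 for Tnnc1, and 0.02 and -0.20 for Tnnt1. The fast genes differed little in either range, with 0.01 in both for Tnnc2, -0.03 and 0.04 for Tnni2 and -0.04 and 0.09 for Tnnt3.

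**Figure D4:**
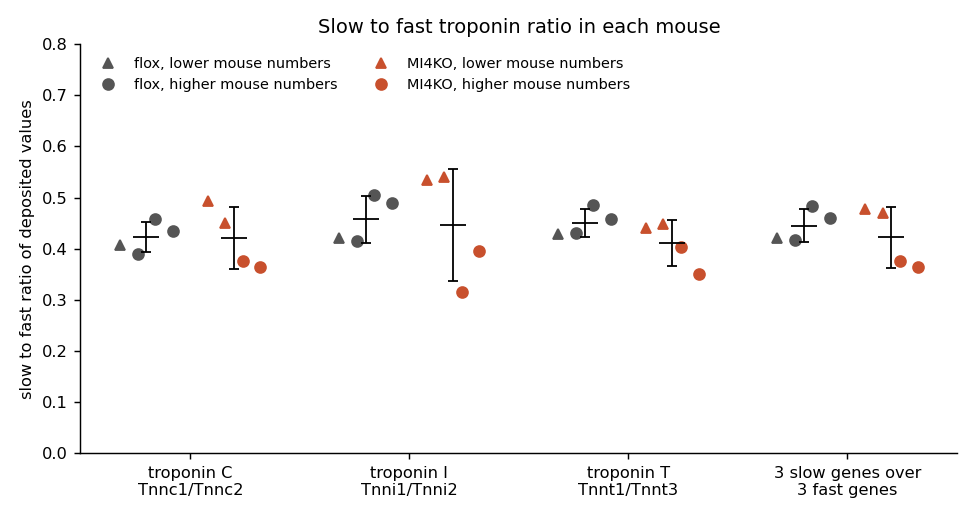
Slow to fast ratio of deposited values in each mouse for troponin C, I and T and for the 3 slow genes summed over the 3 fast genes, flox in grey and MI4KO in orange; triangles are mice of the lower number range, circles mice of the higher, and black bars the mean and SD (n = 4). The MI4KO triangles lie above the flox triangle and the MI4KO circles below the flox circles for each subunit.

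The slow to fast ratios of the 3 subunits ranked the mice in similar orders. Across the 8 mice, the log2 slow to fast ratios of troponin C and I had a Pearson r of 0.875 (Spearman rho 0.905), those of C and T 0.768 (0.810) and those of I and T 0.632 (0.762). The 2 mice farthest from the median were MI4KO 1 and 4 for both pairs with troponin C, and MI4KO 2 and 3 for I and T. Without them r was 0.933, 0.910 and 0.733 over 6 mice, so these 3 values do not all rest on the same mice. Both ratios of a pair come from the same libraries in each case. The fast genes kept nearly fixed ratios to each other. Tnnt3 over Tnni2 stayed between 1.98 and 2.13, with a coefficient of variation of 2.40%, and Tnnc2 over Tnni2 between 1.05 and 1.13, at 2.15%. The slow genes were looser, with 14.1% for Tnnt1 over Tnni1, 9.40% for Tnnc1 over Tnni1 and 5.98% for Tnnt1 over Tnnc1. MI4KO 3 stood apart in both ratios to Tnni1, with Tnnt1 over Tnni1 at 2.56 where the other 7 mice had 1.70 to 2.09, and Tnnc1 over Tnni1 at 1.25 where they had 0.938 to 1.04. Per gene, the coefficient of variation over 8 mice on the deposited scale was 14.9% for Tnni1, 11.4% for Tnnc1 and 10.99% for Tnnt1. Over all genes whose mean value reached 1000, the median was 8.30% and the 10th to 90th percentiles 5.66% to 16.1%, a range that holds these slow genes. With library-size scaling Tnni1 was at 16.3%, Tnnc1 at 11.2% and Tnnt1 at 8.24%, beside a median of 6.94% and a 90th percentile of 16.1%. Per kilobase of the longest coding transcript, the slow gene was at 0.410 of the fast gene for troponin C, 0.306 for troponin I and 0.459 for troponin T in flox mice. These shares depend on the transcript chosen, since the troponin I ratio was 0.465 with the coding length and the troponin T ratio 0.707 with the shortest transcripts.

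The other contractile and calcium genes of the fiber types were read beside the troponins. Of 11 slow-fiber genes outside the troponins, none passed the limits or an unadjusted p of 0.05 in limma, edgeR or DESeq2. Their median log2 difference was -0.05. On the deposited scale 11 of 11 had a negative difference, beside 9 of 11 by edgeR, 8 of 11 by DESeq2 and 6 of 11 with library-size scaling. Myh7, the slow myosin heavy chain, had a log2 difference of -0.17 (standard error 0.12), Atp2a2, the slow calcium pump, -0.08 (0.10) and Myoz2, a calcineurin-binding Z-disc protein, -0.02 (0.10). Of 11 fast-fiber genes none passed the limits, and Myl1 alone had an unadjusted p under 0.05 in each of the 3 tools. The median of the fast-fiber genes was 0.05. Of these genes 7 of 11 were positive on the deposited scale, 4 of 11 by edgeR, 4 of 11 by DESeq2 and 8 of 11 with library-size scaling. Myh2, the heavy chain of oxidative fast fibers, had a log2 difference of -0.13 (0.13) and Atp2a1, the fast calcium pump, 0.05 (0.14). Of 12 thin-filament partners of troponin, 11 were tested and none passed in any of the 3 tools, with log2 differences from -0.12 for Klhl41, which stabilizes the thin filament, to 0.06 for Tmod4, which caps its pointed end. Acta1, skeletal actin, was at -0.05 (0.14) and the tropomyosins Tpm1 and Tpm2 at -0.01 (0.09) and -0.06 (0.11). None of 22 fiber-type regulators passed the limits, from -0.23 for Prox1, a homeobox factor of slow fibers, to 0.38 for Ppargc1a, the coactivator PGC-1alpha. Mef2a, a muscle transcription factor, was the gene with an unadjusted p under 0.05 by edgeR (0.0387) and DESeq2 (0.0478) and not by limma on the deposited scale (0.0932). With other scalings limma also gave Mef2a an unadjusted p under 0.05, 0.0260 with library-size scaling and 0.0360 with median-of-ratios scaling. Without flox 1 the log2 difference of Ppargc1a was 0.68 (unadjusted p = 0.0287 by limma), past the limits, and without MI4KO 3 it was 0.07.

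The slow to fast balance of the troponins followed that of the myosin heavy chains across mice. Myh7 over the sum of the fast heavy chains Myh1, Myh2 and Myh4 was 0.588, 0.572, 0.637 and 0.673 in flox 1 to 4 and 0.697, 0.693, 0.500 and 0.459 in MI4KO 1 to 4. As for troponin I, MI4KO 1 and 2 were above all flox mice and MI4KO 3 and 4 below them. Over the 8 mice, the log2 myosin ratio and the log2 summed troponin ratio had a Pearson r of 0.964 and a Spearman rho of 0.857, and r was 0.861 over 6 mice without MI4KO 3 and MI4KO 4. Of the fast heavy chains, Myh4 and Myh1 ranged over more than the fast troponins did. Myh4, the heavy chain of the fastest fibers, was at 1807, 2496, 34.5 and 35.4 in flox mice and at 278, 831, 55.8 and 2174 in MI4KO mice, a 72.3-fold range, while Tnnc2, Tnni2 and Tnnt3 ranged over 1.21-fold, 1.30-fold and 1.27-fold. Myh1, the heavy chain of intermediate fast fibers, ranged over 3.25-fold and Myh2 over 1.38-fold, close to the troponins. Actn3, an actinin of fast fibers, Pvalb, a calcium buffer of the fastest fibers, and Mybpc2, the fast myosin-binding protein, ranged over 14.1-fold, 4.38-fold and 3.16-fold, and these 3 genes were chosen after their values were seen. The rest of the fast-fiber genes ranged over less, Casq1 over 1.23-fold, Mylpf 1.39-fold, Atp2a1 1.57-fold, Myl1 1.66-fold and Myoz1 2.04-fold. Myosin heavy chain genes are close copies of each other, so their values are uncertain where short reads fit several of them.

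**Figure D5:**
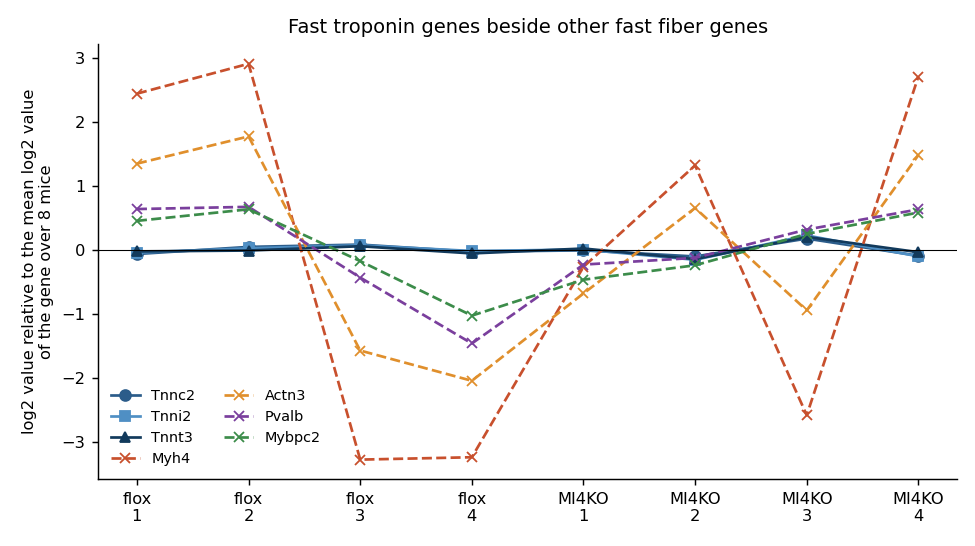
Log2 value of the 3 fast troponin genes (solid) and of Myh4, Actn3, Pvalb and Mybpc2 (dashed) in each mouse, relative to the mean log2 value of each gene over the 8 mice. The troponin lines stay near 0 in every mouse, while Myh4 is low in flox 3, flox 4 and MI4KO 3 and high in flox 1, flox 2 and MI4KO 4. The dashed genes are among those of widest range, and most fast-fiber genes not drawn ranged over less.

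Markers of other cells were checked because slow and cardiac troponins are shared with heart and with immature fibers. Of 12 heart markers 3 passed the filter and none passed the limits, and Nppb, Myl7 and Nkx2-5 were at 0 reads in every mouse. Myh6, the alpha myosin heavy chain of heart, was at 15.2, 13.6, 1451 and 14.5 in flox mice and at 16.7, 14.5, 1089 and 1045 in MI4KO mice. It was high in 3 mice, flox 3, MI4KO 3 and MI4KO 4, all of the higher number range, where flox 2 and flox 4 were low. Summed heart markers were 1063 to 1471 in these 3 mice and 33.7 to 42.7 in the other 5, and Myh6 made up nearly all of the higher sums. The other heart markers that passed the filter were Myl4 and Gja5. Myl4 was at 10.7, 6.38 and 8.52 in the 3 mice and at 10.04 to 16.7 in the other 5. Gja5 was at 7.20, 7.31 and 7.13 in the 3 mice and at 5.95 to 7.29 in the other 5. Without flox 3 the log2 difference of Myh6 was 3.11 (unadjusted p = 0.0446 by limma), past the limits. Tnnt2 did not share this pattern, being lowest among flox mice in flox 3 and highest of all in MI4KO 1. Tnni3 was at 0.150, 0.399 and 0.363 in the 3 mice with high Myh6, at 0 to 0.129 in 4 of the others and at 0.499 in flox 1, on 8 reads or fewer in each mouse. Of 10 markers of immature or denervated fibers 8 were tested and none passed, and their sum was 149.1 to 178.2 in flox mice and 116.7 to 179.4 in the MI4KO group. Myh3, the embryonic heavy chain, had the lowest log2 difference of them, -0.70 (standard error 0.37), with its lowest value, 9.31, in MI4KO 3. With the number range as covariate Myh3 passed the limits at -0.88 (unadjusted p = 0.0214 by limma), as it did without MI4KO 1 (-1.02), while without MI4KO 3 it was -0.25. The sum of smooth muscle markers was 5770.04 to 6307 for flox and 5636 to 7028 for MI4KO mice, with none of 6 past the limits. Des, at 5388 to 6850 over the mice, made up most of that sum, which therefore says little about the other markers. Myh11 was at 54.4 to 63.7 in flox mice and at 26.1, 46.5, 76.1 and 51.1 in MI4KO 1 to 4. Of the liver markers 3 of 12 were tested and of the adipocyte markers 5 of 6, and 1 of each passed the limits, both lower in MI4KO mice, Cyp2e1, a liver cytochrome, at -0.96 (0.37) and Cfd, the adipokine adipsin, at -0.65 (0.28). Cyp2e1 was highest in flox 1 at 11.5, beside 1.06 to 2.43 in the other mice, and without flox 1 its log2 difference was -0.47, no longer past the limits. Cfd did not pass by edgeR or DESeq2, with either other scaling or without the filter. It also did not pass without the trend, with robust estimation or with the number range as covariate. Leaving out MI4KO 1 (-0.37), MI4KO 3 (-0.56), flox 2 (-0.53), flox 3 (-0.67) or flox 4 (-0.64) likewise took Cfd out of the limits. The adipocyte sum was 27.9 to 38.9 for flox and 10.6 to 46.5 for MI4KO mice, and the part of any of these cells in the troponin values was not tested.

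Among the 7333 genes whose mean value reached 10, those whose log2 value followed the summed troponin ratio most closely over the 8 mice were Tceal5 (Pearson r 0.973), Cryab (0.963), Fibp (0.961), Idh2 (0.947) and Rps13 (0.941). Cryab encodes the small heat shock protein alphaB-crystallin and Idh2 the mitochondrial isocitrate dehydrogenase that uses NADP. Cryab was at 2956, 3053, 3509.5 and 3504 in flox mice and at 3318, 3384, 2301 and 2347 in MI4KO mice, lowest in MI4KO 3 and 4 as the ratio was. The genes most opposed to the ratio were Bcl2l13 (-0.899), Api5 (-0.890), Lmbrd1 (-0.890), Zfp236 (-0.888) and Zfp866 (-0.885). Without MI4KO 3 and 4, the mice farthest from the median ratio, r was between 0.804 and 0.936 for the first 5 genes and between -0.828 and -0.600 for the other 5. These are the extremes of 7333 correlations over 8 mice from shared libraries, and they are given as a description.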

How the data were processed

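The authors sequenced SOL RNA of 8 mice as stranded poly(A) libraries with single reads of 50 bases. Their processing notes name Bowtie2 2.1.0, RSEM 1.2.15 and mm10, and their methods name UCSC transcripts and TMM normalization. The deposited signal is a TMM-normalized value per gene and mouse, and the fold change, p and FDR columns of the authors' comparison beside it were not used. Groups are those of the labels, with 1 library per mouse.

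Reads were recovered as multiples of the smallest step in each column, and 100% of values above 0 were whole within 0.01 read. Totals and floors cover counting error only. No pair of mice was counted as 1 library (chi-square per degree of freedom of 6.06 or more over genes). limma 3.58.1 (R 4.3.3) was fitted to log2(value + 1) with a mean-variance trend over 11865 genes (4 or more of the 8 mice at 1 or above), with Benjamini-Hochberg adjustment over all of them. Fold changes on this scale understate those of low genes. The limits were a fold of 1.5 and an unadjusted p of 0.05. Exact permutation tests used scipy 1.17.1, and the smallest p for 4 mice against 4 is 0.0286. edgeR 4.0.16 and DESeq2 1.42.0 on recovered reads were alternatives, as were another pseudocount (0.1), no filter, other scalings, no trend, robust estimation, the mouse number range as a covariate, and mice left out. The main limma fit was tested on simulated data, and the edgeR, DESeq2 and other alternative fits were not.

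The members and all lists were chosen with earlier results of these data known. Named genes are the 8 troponins, Irf4, Myl1, called genes of each list or else its extremes and up to 4 abundant genes, and the 5 most and 5 least correlated with the troponin ratio. Ly6g, a neutrophil marker, has no row in the table.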

Additional observations from a re-analysis of the deposited data

Results flagged for a closer look

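No troponin value or ratio lay far from the others of its group by Dixon's test, in 22 groups of 4 mice examined, where chance flags about 1 in 20.

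The slow to fast log2 ratios differed between the ranges of mouse numbers, since the MI4KO mice lay on one side of the flox mice in the lower range and on the other side in the higher. MI4KO minus flox was 0.21 for troponin C, 0.35 for troponin I and 0.054 for troponin T in the lower range (1 flox, 2 MI4KO). It was -0.20 for troponin C, -0.40 for troponin I and -0.28 for troponin T in the higher range (3 flox, 2 MI4KO). The difference between the ranges was not tested.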

How the results depend on the processing

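No alternative placed one of the 7 tested troponin genes past the limits. Of 18 alternatives, Tnni1 and Tnnt1 kept their negative sign in all 18. The sign turned for Tnnc1 with library-size scaling (0.015). For Tnnc2 and Tnni2 it turned with median-of-ratios scaling (0.0052 and 0.0052), library-size scaling (0.029 and 0.029), the number range as covariate (0.0090 and 0.011), edgeR (0.00061 and 0.0032) and DESeq2 (0.0034 and 0.0061), and for Tnnt3 without flox 1 and MI4KO 3 together (-0.050). All of these values are log2 differences of which none passed the test. With mice left out, one at a time or flox 1 and MI4KO 3 together, the log2 difference ran from -0.11 to 0.064 for Tnnc1, -0.18 to -0.0015 for Tnni1, -0.21 to -0.030 for Tnnt1, -0.10 to 0.017 for Tnnc2, -0.11 to 0.034 for Tnni2, -0.050 to 0.071 for Tnnt3 and -0.011 to 0.16 for Tnnt2. The 4 slow to fast ratio differences moved by less than the spread between mice in 10 of 10 alternatives each. The sign turned in some alternatives for troponin C and troponin I, and stayed negative in all for troponin T and the sum.

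The number of genes past the limits, 26, became 71 with a pseudocount of 0.1, 13 with robust estimation, 65 by edgeR and 51 by DESeq2, and 18 to 57 with each mouse left out, 57 being the value without MI4KO 4. The cause was not tested. The number with an adjusted p under 0.05 was 0 to 1 with each mouse left out, 1 being without MI4KO 2. Tnni3 was fitted only in the alternative without a filter, where it did not pass the limits in limma, and no fold is given for it at its few reads. No paired analysis was possible because the labels give each mouse a number of its own and no number is shared between groups. The adjusted p-values and the intervals rest on 4 mice a group, and levels near 3 reads, as for Tnni3, carry little depth.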
